A study of Mus musculus with 2 samples.

Results

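Oxalate is carried across cell membranes mainly by members of the SLC26 family of anion exchangers. These proteins swap chloride, bicarbonate, sulfate, oxalate or iodide in combinations that differ between members, and some act as chloride channels. The family is best known from the kidney, gut, inner ear and cartilage, where it moves sulfate and chloride and sets how much oxalate enters or leaves the body. The 10 genes *Slc26a1*, *Slc26a2*, *Slc26a3*, *Slc26a4*, *Slc26a6*, *Slc26a7*, *Slc26a8*, *Slc26a9*, *Slc26a10* and *Slc26a11* were taken by name, for the anions they carry and not for how they behaved, and all 10 were found among the 21911 genes measured. *Slc26a5*, which encodes the hair-cell motor protein prestin, was not in this selection and was listed at 0 in both libraries.

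The cells were 4T1, a single mouse mammary carcinoma line of BALB/c origin, and the labels name no transgene or knockdown. They were kept for 48 h with PBS, a saline buffer, or with potassium oxalate, and RNA was sequenced from 1 library per condition. The sample labels give the oxalate dose both as 20 mM and as 20 microM, and the published methods give the micromolar value. The comparison asks whether the transcripts of oxalate carriers differed when the cells met oxalate. Levels are in FPKM (sequenced fragments divided by transcript length in kb and by the mapped total of the library), which are already divided by transcript length, so that levels of different genes can be set side by side. Epithelial markers were high in both libraries, with the keratin genes *Krt8* at 401.94 FPKM with PBS and 429.31 with oxalate and *Krt18* at 394.82 and 405.07. All 5 epithelial markers were above 1 FPKM, and their sum was 1353.24 with PBS and 1418.52 with oxalate. Of the defining markers of leukocytes, *Ptprc* and *Cd3e* were listed at 0, and the 3 endothelial markers summed to 0.08 and 0.09 FPKM. *Cd68* was at 7.79 and 7.11 FPKM and the fibroblast-associated collagen gene *Col1a1* at 143.48 and 144.61. Of the 4 fibroblast markers 2 were above 1 FPKM, *Col1a1* and *Pdgfra*, the latter at 1.88 and 1.93. The steps of the low FPKM values correspond to about 56700000 fragments for PBS and 36500000 for oxalate. No difference between the libraries has a replicate check, so no p-value is given, and every interval below covers counting error only.

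4T1 cells held the transcripts of 5 of the 10 family members at low levels, and these levels were close to each other in the PBS and oxalate libraries. A gene was called expressed at a mean of at least 1 FPKM over the 2 libraries, and 5 of the 10 members passed, against 46.9% of all genes listed. In falling order they were *Slc26a9*, *Slc26a2*, *Slc26a6*, *Slc26a11* and *Slc26a10*. Their levels ran from 1.05 to 3.86 FPKM, below the median of 16.5 FPKM that the 10267 expressed genes had in each library. *Slc26a10*, the lowest of them, overlaps a far higher gene on the opposite strand. Its value may hold reads of that gene, which was not tested, so its place among the expressed members is uncertain. Of the other 5 members, 2 were above 0 but at 0.13 FPKM or less and 3 were listed at 0 in both libraries. The family summed to 12.18 FPKM with PBS and 11.58 with oxalate. In bulk RNA, fewer cells that express a gene and less RNA per cell cannot be told apart.

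**Figure D1:**
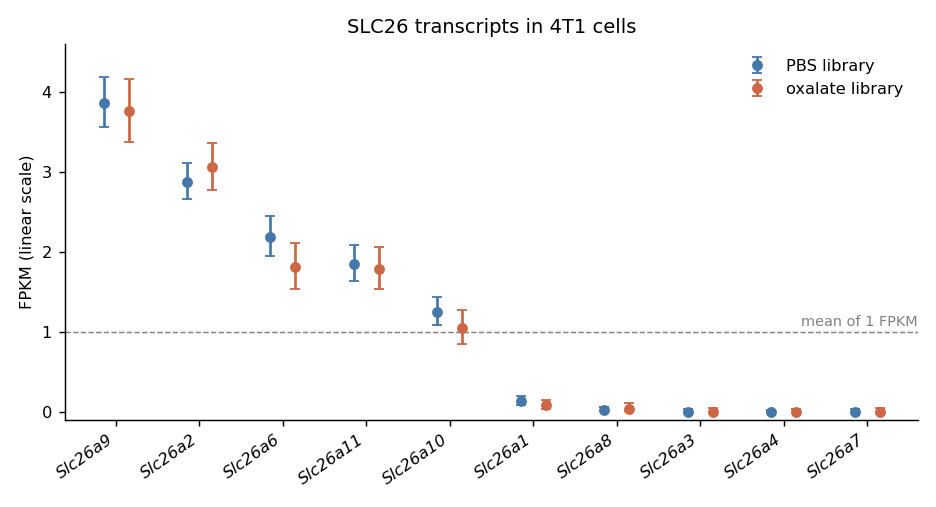
FPKM of the 10 members (vertical axis, linear) in the PBS library (blue) and the oxalate library (orange), 1 library each, ordered by mean. Bars are exact Poisson 95% intervals from estimated reads and cover counting error only. A gap separates *Slc26a10*, at 1.25 and 1.05 FPKM, from *Slc26a1*, at 0.13 and 0.08.

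Among the members known for moving chloride, *Slc26a9* was the highest of the family. It encodes a chloride transporter with channel-like activity in airway and gastric epithelia. *Slc26a9* (ENSMUSG00000042268, chromosome 1, 131744022 to 131771504, plus strand, GRCm38) had 3.86 FPKM in PBS and 3.76 in oxalate. These levels rest on an estimated 589 and 369 reads and have intervals of 3.56 to 4.19 and 3.38 to 4.16 FPKM, which overlap. It made up 31.7% of the family's summed FPKM with PBS and 32.5% with oxalate. *Slc26a9* lay at the 60.3 and 60.0 percentile of all genes listed, of which 36.4% were listed at 0 in both libraries. The 3 genes closest to it in level, by the distance of log2(FPKM + 1) over the 2 libraries, were *Lpar2* (distance 0.0089), *Gatd1* (0.019) and *Zfp51* (0.021).

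The sulfate carriers came next. *Slc26a2*, the diastrophic dysplasia sulfate transporter that feeds sulfate into proteoglycan synthesis and also accepts oxalate, lies on chromosome 18. It had 2.88 FPKM with PBS and 3.06 with oxalate, on an estimated 637 and 436 reads. It was the only expressed member with the higher value in the oxalate library. *Slc26a11* (ENSMUSG00000039908, chromosome 11, 119355557 to 119381079, plus strand), which encodes a sodium-independent sulfate transporter, measured 1.85 FPKM in PBS and 1.78 in oxalate. *Slc26a1* (ENSMUSG00000046959, chromosome 5, 108669878 to 108675569, minus strand), the sulfate and oxalate exchanger of liver and kidney, was far lower at 0.13 FPKM with PBS and 0.08 with oxalate. These values stand for about 21 and 8 reads, and their intervals of 0.0815 to 0.201 and 0.0336 to 0.153 FPKM overlap.

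*Slc26a6* encodes PAT1, also called CFEX, the apical exchanger that swaps chloride for oxalate or bicarbonate and secretes oxalate into the gut. *Slc26a6* (ENSMUSG00000023259, chromosome 9, 108853283 to 108913049, plus strand) had 2.19 FPKM in PBS and 1.81 in oxalate, on an estimated 295 and 157 reads. The intervals of the level, 1.95 to 2.45 and 1.54 to 2.11 FPKM, overlap. *Slc26a10* (ENSMUSG00000040441, chromosome 10, 127171393 to 127180645, minus strand), whose human counterpart is a pseudogene and whose transport is little known, was at 1.25 FPKM in PBS and 1.05 in oxalate.

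*Slc26a3*, *Slc26a4*, *Slc26a7* and *Slc26a8* were at or near 0. *Slc26a3*, the chloride and bicarbonate exchanger of the colon (DRA), was listed at 0 in both libraries, as were *Slc26a4*, which encodes pendrin of the inner ear, thyroid and kidney, and *Slc26a7*, an anion transporter of kidney, stomach and thyroid. *Slc26a3* (ENSMUSG00000001225, 31390871 to 31473917, plus strand) and *Slc26a4* (ENSMUSG00000020651, 31519827 to 31559969, minus strand) are both on chromosome 12, and *Slc26a7* (ENSMUSG00000040569, 14502430 to 14621805, minus strand) is on chromosome 4. Among genes that every cell uses, 7 (*Actb*, *Tbp*, *Hprt*, *Polr2a*, *Rplp0*, *Ppia* and *Sdha*) were all at 28.37 FPKM or more. Levels this high cannot show whether a low gene was lost in the processing. With 3 reads as the limit that a count of 0 allows, *Slc26a3* could be at up to 0.0275 FPKM with PBS and 0.0427 with oxalate. The same limit was 0.0172 and 0.0267 FPKM for *Slc26a4* and 0.0254 and 0.0395 FPKM for *Slc26a7*. *Slc26a8* (ENSMUSG00000036196, chromosome 17, 28637783 to 28690233, minus strand), the testis anion transporter, had 0.02 FPKM with PBS and 0.04 with oxalate, which stands for about 3 and 4 reads. Rounding to 2 decimals alone puts these between 2.06 and 3.43 reads and between 3.1 and 3.98 reads. The oxalate range holds no whole number, so the reads, estimated with an assumed transcript length, are only approximate here.

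The order of the expressed members was the same in both libraries. In PBS, *Slc26a9* was 1.34-fold above *Slc26a2*, *Slc26a2* 1.32-fold above *Slc26a6*, and *Slc26a11* 1.48-fold above *Slc26a10*, each pair with intervals that do not overlap. *Slc26a6* and *Slc26a11* could not be told apart, at a ratio of 1.18 in PBS and 1.02 in oxalate with overlapping intervals. The widest step was from *Slc26a10* to *Slc26a1*, 9.62-fold in PBS and 13.1-fold in oxalate. Both genes overlap a higher gene on the opposite strand, so the size of this step and the place of *Slc26a10* are uncertain.

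For the change with oxalate, log2((oxalate + 1)/(PBS + 1)) was used, with 2-fold or more counted as changed. Adding 1 FPKM before the ratio shrinks the change of low genes such as these. Of the 10 members, 0 were changed 2-fold in either direction, against 0.315% of all genes listed. The 5 members not called expressed, at 0.13 FPKM or less, could not reach 2-fold once 1 FPKM was added. Across the 10267 genes with a mean of at least 1 FPKM, 0.653% were changed, 0.292% higher and 0.36% lower, so that 0 of 5 expressed members is near this background. At 1.5-fold the count of members was also 0, against 1.99% of these genes. The log2 changes of the expressed members ran from -0.18 to 0.07 with a median of -0.036, and 4 were lower and 1 was higher with oxalate. Over all 10 members the median was -0.015. For all genes with a mean of at least 1 FPKM the median was 0.0031, and 49.0% of them were lower.

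The widest difference was that of *Slc26a6*, with a log2 change of -0.18. Among all genes with a mean of at least 1 FPKM, 19.8% lay at least as far from 0. Without a pseudocount its log2 ratio was -0.27, with an exact Clopper-Pearson 95% interval from -0.56 to 0.0088, so the difference was at the edge of what this depth can show. This interval rests on the mean length of the coding transcripts, and *Slc26a6* has 5 coding transcripts of unequal length. With the longest of them the interval ran from -0.49 to -0.066, and with the union of all exons from -0.47 to -0.089, both below 0. *Slc26a10* had a log2 ratio of -0.25 (interval -0.62 to 0.10) and *Slc26a2* one of 0.09 (-0.09 to 0.27). *Slc26a9* and *Slc26a11* had log2 ratios of -0.038 (-0.23 to 0.15) and -0.056 (-0.33 to 0.22). In these 4 members no difference was seen beyond counting error, and the counting intervals lay within 2-fold. Without a pseudocount, *Slc26a1* had a log2 ratio of -0.70 (interval -2.14 to 0.47) and *Slc26a8* one of 1.0 (-1.51 to 3.82). A 2-fold fall of either gene, and a 2-fold rise of *Slc26a8*, would thus lie within counting error.

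**Figure D2:**
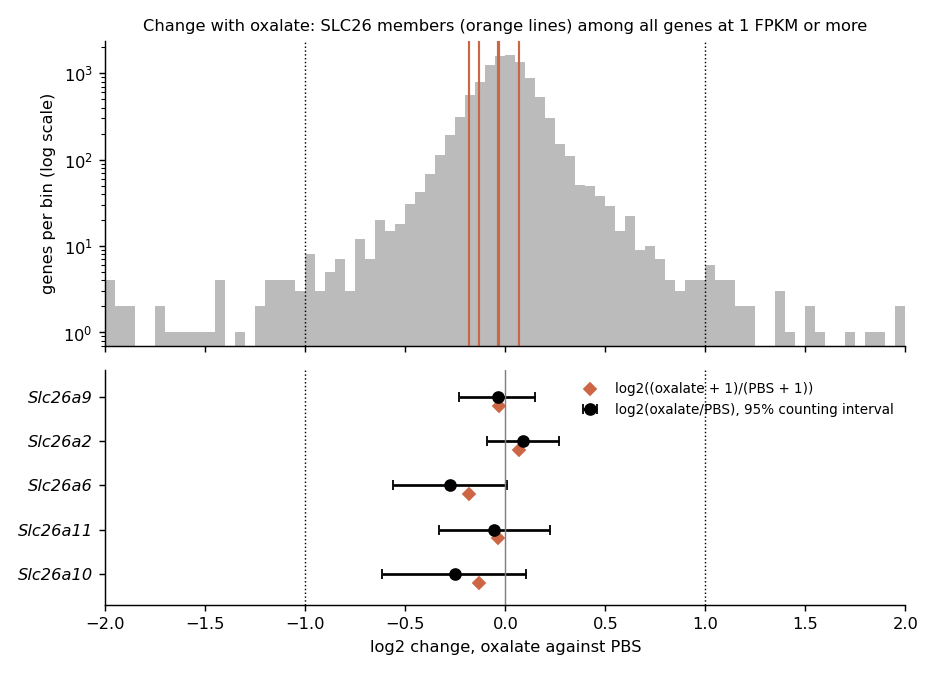
Upper panel, number of genes (log scale) per bin of log2((oxalate + 1)/(PBS + 1)) for the 10267 genes with a mean of at least 1 FPKM, where the outermost bins also hold genes beyond the axis. Orange lines mark the 5 expressed members, which lie between -0.18 and 0.07, and dotted lines mark 2-fold. Lower panel, the log2 ratio of each expressed member without a pseudocount (black, 95% counting interval) and with a pseudocount of 1 (orange diamonds).

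Positions in the genome bear on how far 2 of the low values can be read. The library preparation in the labels does not mark the strand, so reads of genes that overlap on opposite strands may not be told apart. The last exon of *Slc26a10* lies across the last exon of *B4galnt1*, a ganglioside synthase gene on the opposite strand. The genes share 715 exonic bases (chromosome 10, 127171616 to 127172330), which is 17.8% of the exonic bases of *Slc26a10*. *B4galnt1* measured 49.97 FPKM in PBS and 51.89 in oxalate, 40.0-fold and 49.4-fold above *Slc26a10*. Its part in the value of *Slc26a10* was not tested. *Slc26a1* lies within *Idua*, which encodes the lysosomal enzyme alpha-L-iduronidase, on the opposite strand. They share 141 exonic bases, and *Idua* was at 1.53 and 1.76 FPKM, 11.8-fold and 22.0-fold above *Slc26a1*. *Slc26a9*, *Slc26a2*, *Slc26a6* and *Slc26a11* overlap no other annotated gene. *Slc26a3* holds the processed pseudogene *Gm9359* in an intron, for which no value is given here.

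**Figure D3:**
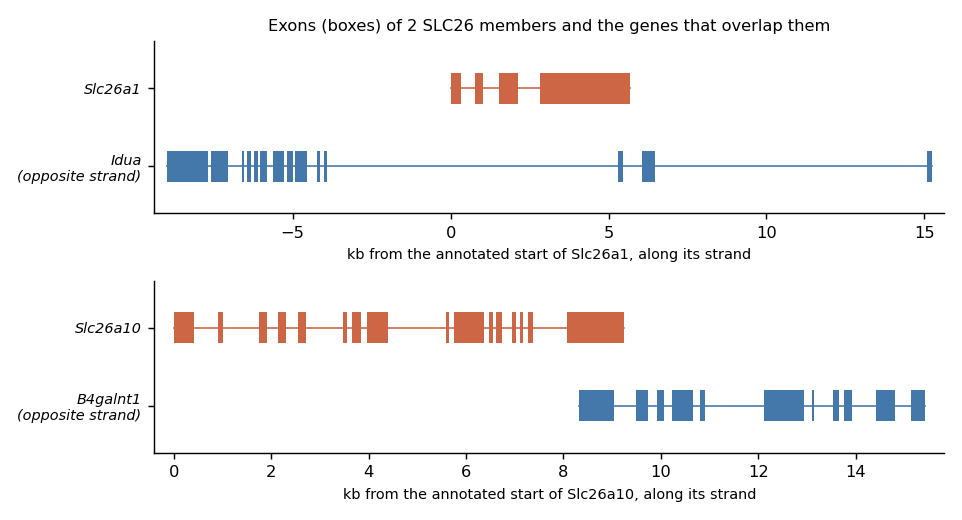
Exons (boxes, all transcripts merged on 1 line) of *Slc26a1* and *Slc26a10* (orange) and of the genes on the opposite strand that overlap them (blue), by distance in kb from the annotated start of the member. *Slc26a1* sits almost wholly in an intron of *Idua* and shares 141 exonic bases with it. *Slc26a10* and *B4galnt1* meet at their ends and share 715 exonic bases.

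Among the nearest neighbours, *Slc26a11* starts 20 bases from *Sgsh*, the gene of the lysosomal heparan sulfamidase, which runs the other way and was at 6.54 FPKM in PBS and 7.02 in oxalate. *Slc26a3* and *Slc26a4*, both listed at 0, flank *Cbll1*, the gene of the E3 ubiquitin ligase Hakai. *Cbll1*, named after its values were seen, had 16.75 FPKM with PBS and 5.7 with oxalate, a log2 change of -1.41 and past 2-fold. The members on either side were at 0 in the same libraries.

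Starts of genes that are active in most tissues are often rich in CpG dinucleotides, whereas starts of tissue-restricted genes tend to be poor in them. The 250 bases before the annotated start were read from RefSeq (GRCm38.p6) for 7 of the 10 members, with 8 windows since *Slc26a1* has more than 1 start. All 8 windows held from 1 to 9 CpG. Of the 10472 windows of genes with a mean of at least 1 FPKM, 75.6% held 10 CpG or more, and the median was 16. Of the 6519 windows of genes listed at 0 in both libraries, 19.9% held as many, and the median was 3. Over all 32851 windows the share was 37.8%. The limit of 10 CpG lies just past the highest member window, so that no member reached it adds nothing to the medians. *Slc26a9*, the highest member, had 4 CpG, the same number as *Slc26a4*, which was listed at 0. *Slc26a6* had the most with 9, and *Slc26a10* had 3. The 3 expressed members with a window thus lay below the median of other expressed genes. Some windows, among them those of *Slc26a3* and *Slc26a6*, lie inside the gene spans given above, since the RefSeq start is not the end of that span. The start that 4T1 cells use was not measured and may lie elsewhere. *Slc26a2*, *Slc26a7* and *Slc26a11* were not read. The windows of the 3 expressed members and of 2 members listed at 0 are shown to let the sparse CpG be seen on both sides. They are written 5′ to 3′ on the strand of the gene, with each CG in capitals, a pair of letters that reads the same on both strands.
Slc26a9 (chr1:131743772-131744021, plus strand): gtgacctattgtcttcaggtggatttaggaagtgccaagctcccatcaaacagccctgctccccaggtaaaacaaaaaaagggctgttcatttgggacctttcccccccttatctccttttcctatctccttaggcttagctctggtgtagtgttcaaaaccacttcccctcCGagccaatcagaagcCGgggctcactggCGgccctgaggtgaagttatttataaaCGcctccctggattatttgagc
Slc26a6 (chr9:108853793-108854042, plus strand): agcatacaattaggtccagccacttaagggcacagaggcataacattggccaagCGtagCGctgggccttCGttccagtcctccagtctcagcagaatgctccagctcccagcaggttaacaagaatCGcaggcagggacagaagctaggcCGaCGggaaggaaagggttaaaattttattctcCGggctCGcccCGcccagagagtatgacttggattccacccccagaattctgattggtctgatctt
Slc26a10 (chr10:127180583-127180832, minus strand): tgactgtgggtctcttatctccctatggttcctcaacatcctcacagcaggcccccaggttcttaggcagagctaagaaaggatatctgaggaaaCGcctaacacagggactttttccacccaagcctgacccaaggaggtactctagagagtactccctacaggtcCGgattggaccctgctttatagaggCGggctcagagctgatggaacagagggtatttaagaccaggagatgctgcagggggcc
Slc26a3 (chr12:31437969-31438218, plus strand): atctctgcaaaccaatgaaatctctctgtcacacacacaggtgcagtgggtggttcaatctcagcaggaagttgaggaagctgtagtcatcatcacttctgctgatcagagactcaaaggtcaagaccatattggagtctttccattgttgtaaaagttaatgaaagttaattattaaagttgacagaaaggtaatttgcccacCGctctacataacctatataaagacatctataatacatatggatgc
Slc26a4 (chr12:31559985-31560234, minus strand): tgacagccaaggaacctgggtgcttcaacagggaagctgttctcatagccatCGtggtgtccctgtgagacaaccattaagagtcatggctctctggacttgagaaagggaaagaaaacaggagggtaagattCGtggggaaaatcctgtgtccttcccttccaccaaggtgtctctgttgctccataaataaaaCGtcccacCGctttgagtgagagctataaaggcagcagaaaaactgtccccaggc

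**Figure D4:**
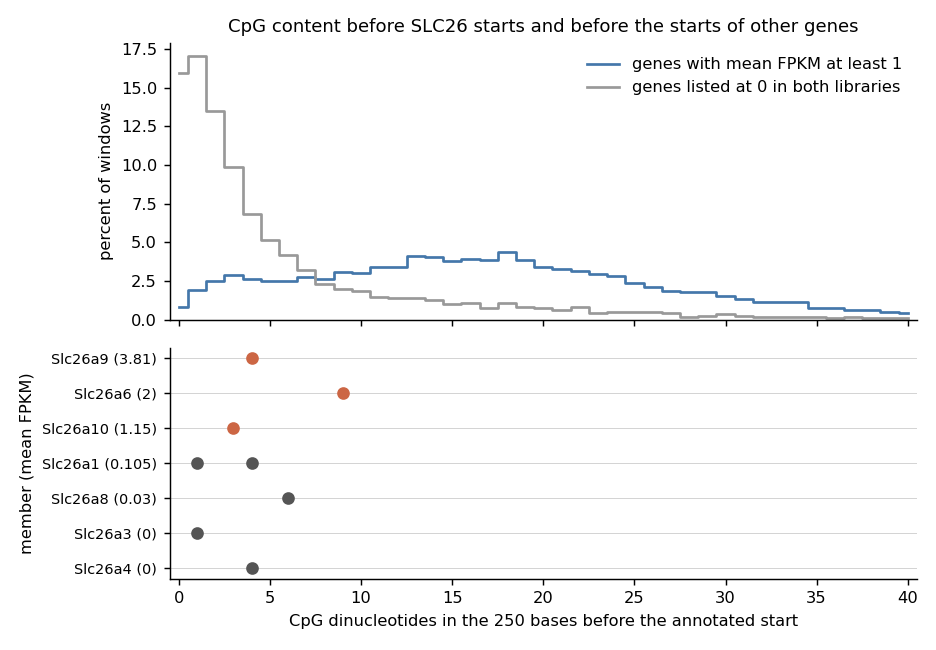
Upper panel, percent of windows (vertical axis) by number of CpG dinucleotides in the 250 bases before the annotated start (horizontal axis), for genes with a mean of at least 1 FPKM (blue) and genes listed at 0 in both libraries (grey). Lower panel, the windows of the 7 members with a RefSeq entry, by mean FPKM in parentheses (orange, expressed). All 8 member windows lie at 9 CpG or fewer.

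Related carriers, channels, enzymes and regulators were set beside the family. Of 73 genes in 7 lists drawn up from general knowledge, 46 had a mean of at least 1 FPKM, with a median log2 change of 0.048. Of these 46, 0 were changed 2-fold, against 0.653% of all genes at this level, and 1 was changed 1.5-fold, against 1.99%. *Slc9a3r2* (named after its values were seen), which encodes the PDZ scaffold NHERF2 that binds transporters of the apical membrane, was this gene, at 5.69 FPKM with PBS and 9.45 with oxalate, a log2 change of 0.64. The SLC4 family, many but not all of whose members carry bicarbonate, had 5 of 10 members expressed. Its sum was 88.33 FPKM with PBS and 94.34 with oxalate. *Slc4a2*, the anion exchanger AE2, was at 38.26 and 42.6 FPKM, and *Slc4a11* was at 33.01 and 34.4. Both were above *Slc26a9*. In this list the median log2 change was 0.058, with 3 genes higher and 2 lower.

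In the list of SLC13 and mitochondrial dicarboxylate carriers 2 of 7 genes were expressed, both mitochondrial. *Slc25a11*, the oxoglutarate carrier, measured 65.47 FPKM in PBS and 71.54 in oxalate, and *Slc25a10*, the dicarboxylate carrier, at 61.52 and 68.76, which gives log2 changes of 0.13 and 0.16. In the list of sulfate activation 5 of 6 genes were expressed, 1 higher and 4 lower with oxalate, with a median log2 change of -0.043. *Bpnt1*, a phosphatase that clears the by-product of sulfation, was at 51.6 and 50.31 FPKM, and *Slc35b2*, which brings the activated sulfate PAPS into the Golgi, was at 47.17 and 44.17. Of 17 sulfotransferase genes 11 were expressed, with a median of 0.028, and *Tpst2* was the highest at 96.45 and 109.31 FPKM, ahead of *Hs6st1* at 47.4 and 46.72. *Tpst2* sulfates tyrosines of secreted proteins, and *Hs6st1* sulfates heparan sulfate.

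Of 15 chloride channel genes 13 were expressed, 10 higher and 3 lower with oxalate, with a median log2 change of 0.088. *Lrrc8d* and *Lrrc8c*, subunits of the volume-regulated anion channel, were at 87.9 and 102.96 FPKM and at 82.34 and 82.66 FPKM. Of the carbonic anhydrases and sodium-proton exchangers, which supply bicarbonate and remove acid, 3 of 9 genes were expressed with a median of 0.065. *Car12* was at 27.45 and 28.77 FPKM and *Car13* at 22.57 and 20.99. Of the scaffolds and kinases that act on SLC26 and its partners, 7 of 9 genes were expressed, with a median of -0.054. *Ahcyl1*, which encodes the transporter regulator IRBIT, was at 90.1 and 92.55 FPKM, and *Wnk1*, a kinase that senses chloride, was at 87.36 and 79.62.

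**Figure D5:**
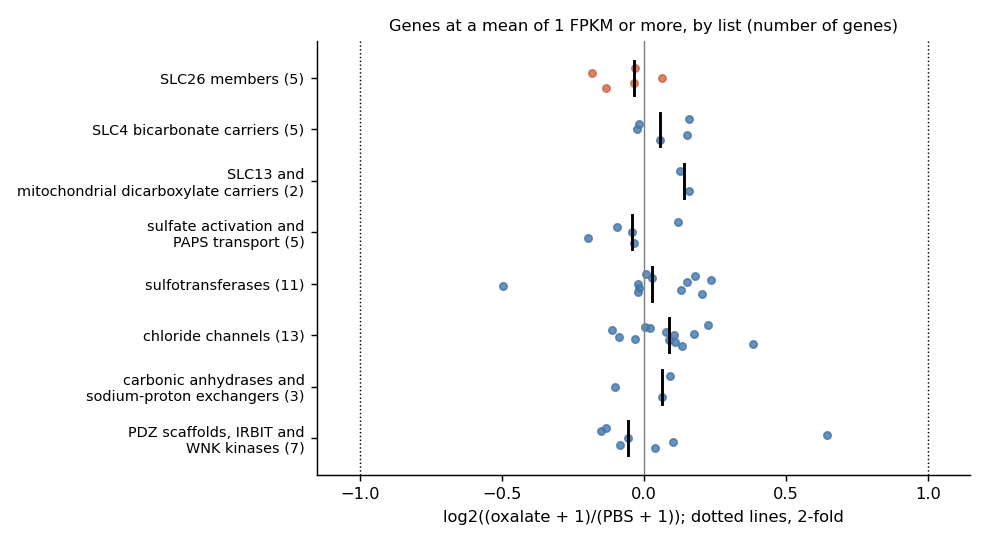
Log2((oxalate + 1)/(PBS + 1)) (horizontal axis) of each gene with a mean of at least 1 FPKM in the SLC26 family (orange) and 7 related lists (blue), with the number of genes in parentheses and the list median as a black bar. No point passes the dotted lines at 2-fold, and the SLC26 points lie between -0.18 and 0.07.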

How the data were processed

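Polyadenylated RNA of 4T1 cells was sequenced in 1 PBS and 1 oxalate library. The authors deposited FPKM values per gene, rounded to 2 decimals. Bowtie2 2.2.8 and TopHat2 2.1.1 are named in the submitters' processing notes. The quantification tool, genome build and annotation are not given in the sources used here. Ensembl identifiers were given GENCODE M21 symbols (GRCm38), which were found for 21848 of 21911. The change was log2((oxalate + 1)/(PBS + 1)), expressed genes had a mean FPKM of at least 1, and 2-fold was called, with no test. For genes of 300 to 700 bases with 1 transcript, FPKM times kb fell on multiples of 0.0176 (PBS) and 0.0274 (oxalate), taken as 1 read each. Reads of members were estimated with the mean coding transcript length. Intervals are exact Poisson or Clopper-Pearson at 95% and do not replace replicates.

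Members, lists, rules and alternatives were chosen with earlier results of these data known. Named are all 10 members, genes that overlap them, genes nearest in level, and in each related list the genes past 2-fold or else the 2 highest. Markers and others are named as examples or where stated. A leukocyte marker of the lists is not reported here. Scripts were tested on simulated data. Analyses ran in Python 3.11.15 with pandas 2.3.3 and numpy 2.4.6, statistics in scipy 1.17.1, and plots in matplotlib 3.10.9.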

Additional observations from a re-analysis of the deposited data

How the results depend on the processing

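No paired analysis was possible because PBS and oxalate were each sequenced once, and for the same reason no library could be left out. The 5 expressed members became 6 at a mean of at least 0.1 FPKM and 0 at a mean of at least 5. The 67 genes changed 2-fold among all genes with a mean of at least 1 FPKM became 204 at 1.5-fold, and the 0 changed genes of the related lists became 1. Kept at 2-fold, the 67 became 97 with a pseudocount of 0.1, 76 after rescaling to equal sums and 69 over all genes listed. The count of 0 changed members held under all 5 alternatives run for it. These could hardly have moved the count, since the member farthest from 0 was at -0.18. None of them left out the pseudocount. Without a pseudocount *Slc26a8* had a log2 ratio of 1.0, on about 3 and 4 reads. Of 28 recomputed member changes (pseudocounts of 0.1 and 0.01 and both rescalings) 0 changed sign. A different pseudocount cannot change a sign, and rescaling by the median ratio of 1.0005 could hardly do so. Only the rescaling to equal sums could thus have changed a sign to any extent. The median of -0.036 stayed between -0.055 and -0.015. Estimated reads rise with the assumed length, which moved 17 of 28 values beyond their counting interval. Of 10 intervals recomputed for the 5 expressed members, 8 held 0, and the other 2 were those of *Slc26a6*. Depth limits *Slc26a1* and *Slc26a8*, where a few reads decide the ratio. The protein comparison was not made, since no protein sequences were used here.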

Other observations

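The genes in this paragraph were named after their values were seen. Within families that handle the same anions, the 4T1 libraries held some members and lacked others. *Slc13a1*, *Slc13a3* and *Slc13a5*, which carry sulfate, dicarboxylates and citrate into cells, were listed at 0 in both libraries, and *Slc13a2* and *Slc13a4* at 0.01 FPKM with PBS and 0 with oxalate. Of the synthases that activate sulfate, *Papss1* was at 27.15 FPKM in PBS and 26.32 in oxalate, while *Papss2* was listed at 0 and at 0.02. *Cftr*, the chloride channel known to bind SLC26 members, was listed at 0 in both, and the calcium-activated chloride channel gene *Ano1* was at 22.47 and 24.78 FPKM. The sulfotransferase gene *Hs3st1* had the lowest log2 change of its list, -0.50, from 43.54 FPKM with PBS to 30.59 with oxalate.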
